A study of Mus musculus with 6 samples.

Results

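5-hydroxymethylcytosine (5hmC) and 5-methylcytosine (5mC) peaks were examined at 8 mouse loci that mark epithelial or mesenchymal cells: Cdh1 and Epcam on the epithelial side, and Zeb1, Zeb2, Snai2, Cdh2, Col1a1 and Thy1 on the mesenchymal side. The loci were defined by gene name and fixed mm9 intervals, and were chosen with earlier results of these data known. A peak belonged to a locus when it overlapped the interval by at least 1 bp, which gave 334 of the 663518 peaks in the 6 deposited lists. The intervals were Cdh1 on chromosome 8 from 109115000 to 109205000, Epcam on chromosome 17 from 88025000 to 88060000, Zeb1 on chromosome 18 from 5580000 to 5785000 and Zeb2 on chromosome 2 from 44830000 to 44985000. The others were Cdh2 on chromosome 18 from 16735000 to 16980000, Snai2 on chromosome 16 from 14695000 to 14720000, Col1a1 on chromosome 11 from 94785000 to 94825000 and Thy1 on chromosome 9 from 43840000 to 43865000. Together they span 820 kb.

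The cells came from a secondary reprogramming system on the OG2-GFP/Rosa26-M2rtTA background, which all groups share. Fibroblasts from mice made with Tet1, Sox2, Klf4 and c-Myc (TSKM) iPS cells were taken at passage 4, either before induction or after doxycycline for 3 days in ES medium (day 3), and an iPS line of this system was taken at passage 10 to 15. The iPS cells were 1 line grown on feeder cells, which were reduced by replating before collection, and the sources used here do not say how many mice gave the fibroblasts. Each stage was immunoprecipitated with a polyclonal 5hmC and a monoclonal 5mC antibody, so that every value below rests on a lone library with no replicate error and no test. The number of reads behind each list is unknown, and a longer list covers more of any locus: the lists covered from 1.44% of the autosomes (fibroblast 5hmC) to 7.53% (iPS 5hmC). The cells were sampled in bulk, so a mark in fewer cells and less of the mark per cell cannot be told apart, and DNA marks give no expression against which the cell labels could be checked.

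Cdh1 encodes E-cadherin, the adhesion protein of epithelial junctions, and Epcam encodes an epithelial cell adhesion molecule. Zeb1, Zeb2 and Snai2 (Slug) encode zinc-finger repressors that bind E-box sequences and silence epithelial genes such as Cdh1. Cdh2 encodes N-cadherin, Col1a1 a chain of the fibrillar collagen that fibroblasts secrete, and Thy1 a surface glycoprotein of fibroblasts. Fibroblasts that become iPS cells pass through a mesenchymal-to-epithelial transition, in which genes of the first kind are switched on and genes of the second kind are switched off. 5mC in mammals lies mostly on CpG dinucleotides and is found over promoters of silent genes as well as within active genes, and 5hmC, its oxidation product, is found mainly at enhancers and in gene bodies.

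The number of CpG in a fragment also bears on how readily the antibodies capture it. To show where such sites lie, the 250 bases before the annotated start are printed for the 2 loci that the RefSeq promoter table holds (GRCm38.p6), with each CpG in capitals. These sequences are on another build than the peaks, so no peak was placed on them.
Epcam, chr17:87635729-87635978, plus strand: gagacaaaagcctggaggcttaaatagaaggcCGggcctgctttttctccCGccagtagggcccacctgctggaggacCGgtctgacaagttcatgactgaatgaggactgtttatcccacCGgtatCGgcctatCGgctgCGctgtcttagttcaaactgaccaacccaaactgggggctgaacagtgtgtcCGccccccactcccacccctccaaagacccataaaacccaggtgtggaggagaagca
Zeb2, the start farthest upstream, chr2:45117443-45117692, minus strand: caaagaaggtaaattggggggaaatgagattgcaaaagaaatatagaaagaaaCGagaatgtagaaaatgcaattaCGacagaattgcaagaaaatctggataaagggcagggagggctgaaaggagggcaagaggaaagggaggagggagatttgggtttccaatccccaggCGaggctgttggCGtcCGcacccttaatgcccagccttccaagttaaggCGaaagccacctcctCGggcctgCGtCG
The Epcam stretch holds 8 CpG and the Zeb2 stretch 9, against a median of 6 over the 32851 stretches of the table, and 43.0% of those hold at least as many as Epcam. The other 3 annotated Zeb2 starts have 6, 6 and 14. The E-box CAGGTG, a form that repressors of the Zeb and Snai families bind, was searched on both strands, that is as CAGGTG or CACCTG in the letters shown. Epcam has it at positions 64 and 232 counted from the first base, and none of the 4 Zeb2 stretches has it. At least 1 match occurs in 17.2% of all stretches and at least 2 in 2.06%. A match is a description of the letters only.

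Over the 8 loci together, 5hmC peaks were few in fibroblasts, most numerous at day 3 and fewer again in iPS cells. Fibroblasts had 17, day 3 had 111 and iPS cells had 77, and these covered 1.67%, 15.9% and 9.26% of the 820 kb. The same lists covered 1.44%, 5.11% and 7.53% of the autosomes, so the loci were covered 1.16, 3.11 and 1.23 times as much as the autosomes. Pooled by length, the loci thus stood above their list most at day 3. By class, the epithelial loci stood at 0, 2.31 and 3.00 times the autosomal share, highest in iPS cells. The mesenchymal loci stood at 1.37, 3.25 and 0.910 times. Without Zeb2 and Cdh2, which left 42 of the 111 day-3 peaks, the pooled day-3 ratio was 2.15 and the pooled iPS ratio 1.73. 5mC peaks at the loci numbered 44, 65 and 20 and covered 4.99%, 7.67% and 2.33%, or 1.12, 1.12 and 0.968 times the autosomal share. These ratios near 1 average unlike members: the epithelial loci stood at 2.71, 2.55 and 2.83 times the autosomal share and the mesenchymal loci, pooled by length, at 0.831, 0.862 and 0.633 times. The mesenchymal loci were themselves unlike: Col1a1 stood at 1.83, 2.75 and 4.65 times and Thy1 at 2.10, 1.66 and 1.30 times. Zeb2 stood at 1.36, 1.24 and 0.600 times, Zeb1 and Cdh2 were below 1 at each stage, and Snai2 had no peak. Without Zeb2 and Cdh2 the 5mC ratios of the remaining loci were 1.38, 1.38 and 1.60.

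A locus is called higher or lower below when the covered length at the later stage was at least 2 times, or at most 0.5 times, that at the earlier stage. For 5hmC, 7 of the 8 loci were higher at day 3 than in fibroblasts, all but Snai2, and 0 were lower. Of autosomal windows of 100 kb with 5hmC at either stage, 61.0% were higher and 19.5% lower. The same 7 were higher in iPS cells than in fibroblasts and 0 were lower, against 68.6% and 11.5% of windows. From day 3 to iPS cells Epcam was higher (windows, 38.7%), Zeb2 and Cdh2 were lower (19.9%), and Cdh1, Zeb1, Col1a1 and Thy1 lay within the fold. For 5mC, Col1a1 was higher at day 3 than in fibroblasts (36.9% of windows) and 0 loci were lower (1.61%). In iPS cells Epcam, Zeb1, Zeb2, Cdh2 and Thy1 were lower than in fibroblasts (50.3%) and 0 were higher (5.35%). These 5 and Cdh1 were also lower than at day 3 (80.7%), and 0 were higher (1.20%). More 5hmC than in fibroblasts at either later stage, and less 5mC in iPS cells than at day 3, were thus also found in most of the autosomal windows tested.

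**Figure D1:**
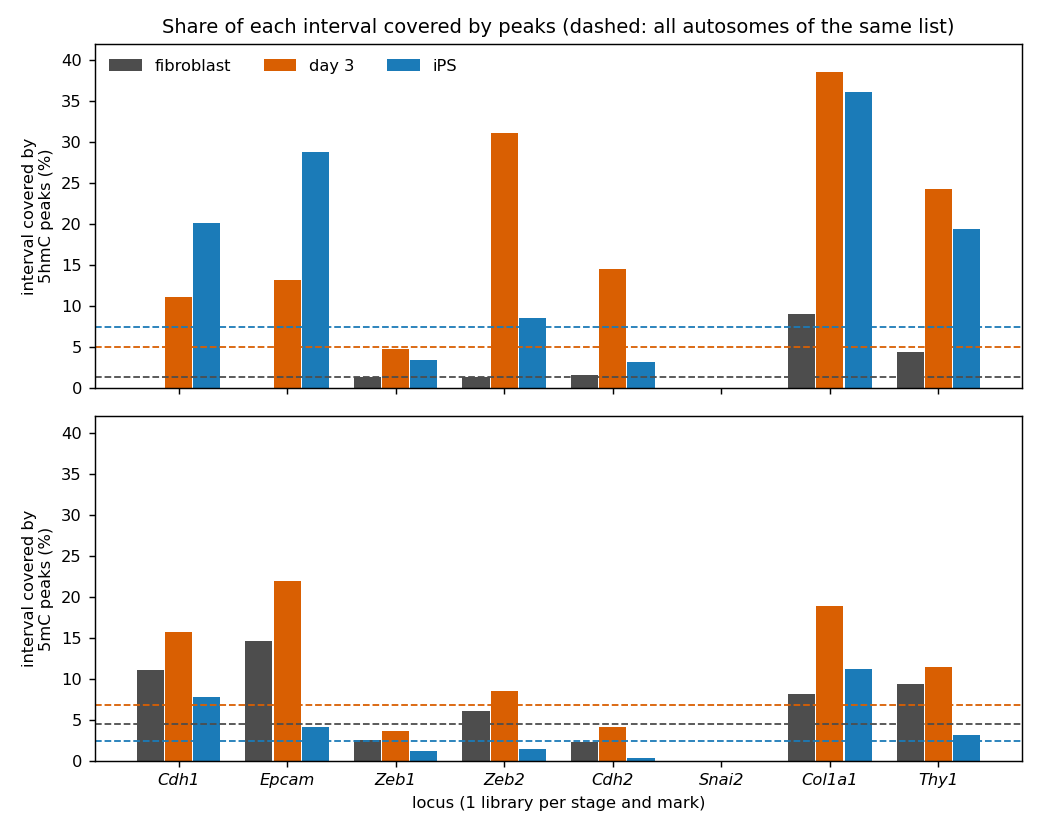
Share of each interval covered by 5hmC peaks (top) and 5mC peaks (bottom) in percent, for fibroblasts, day 3 and iPS cells, with 1 library per bar and the autosomal share of the same list as a dashed line. Zeb2 and Cdh2 reach 31.1% and 14.6% 5hmC coverage at day 3 and 8.55% and 3.25% in iPS cells, Cdh1 and Epcam have their highest 5hmC bar in iPS cells, and Snai2 has no bar.

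The epithelial loci had no 5hmC peak in fibroblasts. Cdh1 had 0 5hmC peaks in fibroblasts, 9 after 3 days and 18 in the iPS line, which covered 0 kb, 10.1 kb and 18.2 kb of the 90 kb interval. At Epcam the numbers were 0, 5 and 8, and the covered lengths 0 kb, 4.64 kb and 10.1 kb of 35 kb. A stretch without fibroblast 5hmC was common: 38.3% of autosomal windows as long as the Cdh1 interval and 61.9% of those as long as the Epcam interval had none. The nearest fibroblast 5hmC peaks lay 61.8 kb before and 40.2 kb after the Cdh1 interval, and 8.31 kb before and 36.6 kb after that of Epcam.

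Both epithelial loci carried 5mC in fibroblasts above the autosomal level. At least as much was found in 13.8% of autosomal windows as long as the Cdh1 interval and 9.39% of those as long as that of Epcam. Cdh1 had 11, 15 and 6 5mC peaks at the 3 stages, covering 11.1%, 15.7% and 7.83% of its interval, which was 2.49, 2.30 and 3.26 times the autosomal share. Epcam had 5, 7 and 2, covering 14.7%, 21.9% and 4.16%, or 3.28, 3.19 and 1.73 times. The iPS length of 5mC was 0.705 times that of fibroblasts at Cdh1 and 0.284 times at Epcam, with 0.538 times on the autosomes between them. The stretches of equal length on either side of Cdh1 were also rich in fibroblast 5mC, at 13.6% before and 6.18% after it. At Epcam they were at 7.27% and 16.4%.

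Within Cdh1 most fibroblast 5mC peaks lay in the later part of the interval and most day-3 5hmC peaks in the earlier part. Of the 11 fibroblast 5mC peaks, 10 lay between 57.5 and 80.0 kb from the start of the interval, and 8 of the 9 day-3 5hmC peaks lay in the first 55 kb. The boundary at 55 kb was chosen after the peaks were seen. Of the 15 day-3 5mC peaks, 6 also lay in the first 55 kb. By overlap, 2 of the 9 day-3 5hmC peaks lay on fibroblast 5mC (22.2%, against 27.5% of the whole list) and 3 of 9 on day-3 5mC (33.3%, against 40.4%), which is near the shares of the list. The best-scoring and widest day-3 5hmC peak of the locus, chromosome 8 from 109142328 to 109144218, with a score of 743.55 within the top 5.28% of its list, overlapped day-3 5mC and no 5hmC peak of another stage. In iPS cells 12 of the 18 5hmC peaks and all 6 5mC peaks lay in the part beyond 55 kb. More iPS 5hmC peaks of Cdh1 overlapped fibroblast 5mC than day-3 5hmC. The numbers were 10 of 18 (55.6%, 95% Wilson interval 33.7 to 75.4, counting error only) and 2 of 18 (11.1%, 3.10 to 32.8). Over the whole iPS 5hmC list these shares were 39.9% and 32.9%.

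At Epcam each of the 5 day-3 5hmC peaks had an iPS counterpart, against 48.3% of the whole day-3 list. With iPS 5hmC over 28.9% of the interval and 7.53% of the autosomes, that list is not a like background. Of its 8 iPS 5hmC peaks, 4 had a day-3 counterpart, against 32.9% of the whole iPS list. The region at chromosome 17 from 88039177 to 88041294 carried 5mC in fibroblasts (the best peak of the locus, score 460.56, top 2.72% of its list) and at day 3 (score 997.52, top 1.55%). It carried 5hmC at day 3 and in iPS cells (score 848.54, top 0.976%), and no 5mC in the iPS list. The widest iPS 5hmC peak of Epcam, from 88026278 to 88028850, lay near the start of the interval and overlapped a 5mC peak of the iPS list with a score of 53.52, which 89.5% of that list reached.

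**Figure D2:**
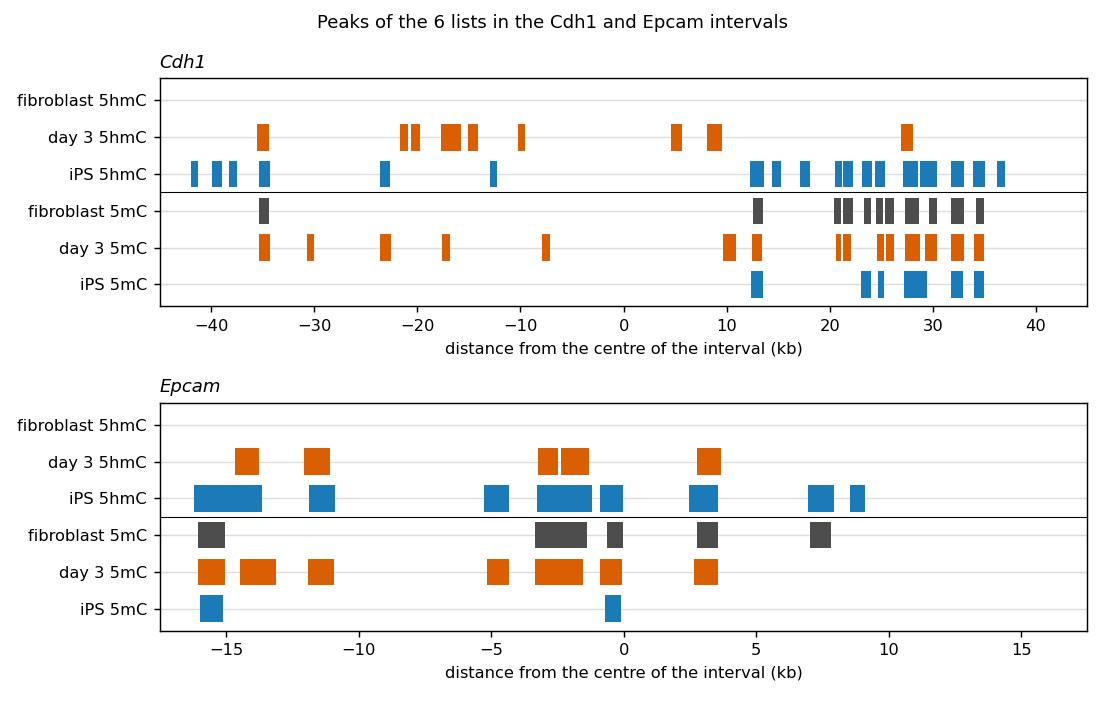
Position of each peak of the 6 lists (rows, coloured by stage) in the Cdh1 and Epcam intervals, by distance from the centre of the interval in kb. In Cdh1 most fibroblast 5mC and iPS 5hmC peaks lie right of the centre, where the day-3 5hmC row has 3 of its 9 peaks, and the fibroblast 5hmC row is empty at both loci.

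At day 3 Zeb2 had the greatest length of 5hmC of the 8 loci. Zeb2 had 3 5hmC peaks in fibroblasts, 31 after 3 days and 17 in the iPS line, which covered 2.09 kb, 48.3 kb and 13.3 kb of the 155 kb interval. The day-3 length was 23.1 times that of fibroblasts, against 3.55 times on the autosomes, and the iPS length was 0.275 times that of day 3, against 1.47 times. At day 3 Zeb2 was covered 6.10 times as much as the autosomes, and in fibroblasts and iPS cells 0.938 and 1.14 times. Of 15937 autosomal windows of the same length, 139 (0.872%) had at least as much day-3 5hmC. The stretches of equal length before and after Zeb2 were covered to 5.20% and 6.85% at day 3, against 31.1% within the interval.

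Some of the day-3 5hmC peaks at Zeb2 were broad. The median width of the 31 was 1025 bp, and 7 of 31 (22.6%) were at least 2 kb wide, against 925 bp and 6.43% in the whole list. The median was larger at Col1a1 (1189 bp) and Cdh1 (1040 bp). At Col1a1 18.2% and at Thy1 16.7% of the day-3 5hmC peaks were at least 2 kb wide. The best-scoring peak of Zeb2, chromosome 2 from 44914144 to 44917650, had a score of 1883.14, within the top 0.832% of the list. The widest, from 44921089 to 44925743, spanned 4655 bp, and an iPS 5hmC peak of 1294 bp from 44921281 to 44922574 lay within it. In the iPS list 12 of the 31 day-3 peaks had a 5hmC counterpart (38.7%, 95% Wilson interval 23.7 to 56.2, counting error only), against 48.3% of the whole day-3 list. Conversely 13 of the 17 iPS peaks lay on a day-3 peak (76.5%, 52.7 to 90.4), against 32.9% of the whole iPS list, so most iPS 5hmC peaks of Zeb2 lay where a day-3 peak had been called. With day-3 5hmC over 31.1% of the interval and 5.11% of the autosomes, the whole list is not a like background for this share.

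5mC at Zeb2 differed far less between fibroblasts and day 3. Its 5mC peaks numbered 9, 14 and 3 over the stages and covered 6.07%, 8.5% and 1.44% of the interval. The day-3 length was 1.4 times that of fibroblasts, below the 1.53 times of the autosomes, and all 9 fibroblast 5mC peaks were present in the day-3 5mC list, as were 89.7% of the whole fibroblast list. All 9 also had a 5hmC peak at day 3, whereas 30.9% of the whole fibroblast 5mC list did. Day-3 5hmC covered 31.1% of the interval and 5.11% of the autosomes, so the whole list is not a like background for these 9. Conversely 9 of the 31 day-3 5hmC peaks (29.0%) lay on fibroblast 5mC, near the 27.5% of the whole day-3 list, and 15 of the 31 (48.4%) lay on no peak of any other list, against 38.4%. In iPS cells 1 of the 9 had a 5mC peak, against 39.4% of the whole list. Of the 3 iPS 5mC peaks, 0 overlapped an iPS 5hmC peak (95% Wilson interval 0 to 56.1), against 67.2%. The best score of these 3 was 58.79, near the minimum of 50, and 77.1% of their list reached it.

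Cdh2 followed the same order of stages at a lower density. Its 5hmC peaks numbered 6, 38 and 10, and covered 3.97 kb, 35.7 kb and 7.95 kb of 245 kb, the longest interval of the 8. The day-3 length was 8.99 times that of fibroblasts and the iPS length 0.223 times that of day 3. At day 3 the interval was covered 2.85 times as much as the autosomes, and 9.14% of same-length windows had at least as much. In iPS cells it was covered 0.431 times as much. The neighbouring stretches were at 1.82% and 1.10% at day 3, against 14.6% within the interval.

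Day-3 5hmC peaks of Cdh2 were narrower than those of Zeb2, with a median of 802 bp and a widest peak of 1838 bp. Of the 38 peaks, 24 lay on no peak of another list (63.2%, against 38.4% of the whole day-3 list), and the best of them by score, chromosome 18 from 16782064 to 16783820, was of this kind, with a score of 885.62 in the top 3.93%. A 5hmC counterpart in iPS cells was found for 8 of the 38 (21.1%), against 48.3% of the whole list. 5mC at Cdh2 was sparse throughout, with 7, 12 and 1 peaks covering 2.33%, 4.14% and 0.282% of the interval. These were 0.522, 0.604 and 0.117 times the autosomal shares, so that the iPS list had a lone 5mC peak of 690 bp, from 16766187 to 16766876, in 245 kb.

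A pattern with at least 2 times as much 5hmC at day 3 as in both fibroblasts and iPS cells occurred at Zeb2 and Cdh2 alone among the 8 loci, and in 15.6% of the autosomal windows of 100 kb with any 5hmC. This rule was set after the values were seen.

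**Figure D3:**
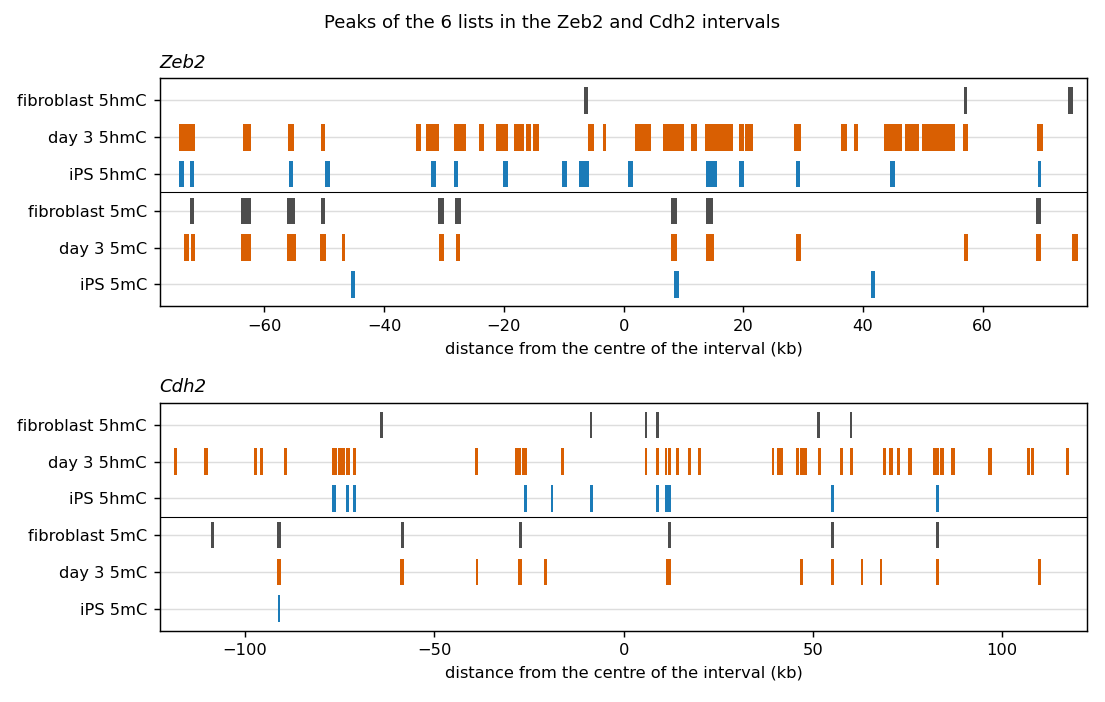
Position of each peak of the 6 lists in the Zeb2 and Cdh2 intervals, by distance from the centre of the interval in kb, coloured by stage. The day-3 5hmC row holds 31 and 38 peaks, more than any other row, the iPS 5hmC row holds 17 and 10, and the iPS 5mC row holds 3 and 1.

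Zeb1, the paralogue of Zeb2, did not share this pattern. Its 5hmC peaks numbered 3, 11 and 7 and covered 2.93 kb, 9.95 kb and 7.10 kb of 205 kb. The day-3 length was 3.39 times that of fibroblasts, close to the 3.55 times of the autosomes. The iPS length was 0.714 times that of day 3, against 1.47 times on the autosomes, or 0.484 times relative to them. At the 3 stages Zeb1 was covered 0.995, 0.95 and 0.460 times as much as the autosomes by 5hmC. Its 5mC peaks numbered 5, 8 and 3, at 0.554, 0.525 and 0.484 times the autosomal share. Zeb1 was thus below the level of the autosomes in all 6 lists, and Zeb2 above it in 4 of 6.

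The best-scoring peaks of Zeb1 lay at the same few positions at every stage. From 5747725 to 5749264 on chromosome 18, overlapping 5hmC peaks were called at all 3 stages and 5mC in none, and these were the best-scoring 5hmC peaks of the locus in fibroblasts (score 253.21) and at day 3 (674.38). From 5772086 to 5774329, 5mC was called at all 3 stages, with the best score of the locus in fibroblasts (303.99) and at day 3 (649.46). 5hmC appeared there at day 3 and was the best iPS 5hmC peak of the locus (567.72, top 2.81% of the list).

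No peak of either mark was called in the 25 kb Snai2 interval at any stage. The nearest peak before the interval lay 63.8 kb away in each of the 6 lists. After the interval the nearest peak lay at 99.2 kb, 182 kb and 221 kb for 5hmC, in the order of the stages, and at 78.6 kb, 78.7 kb and 418 kb for 5mC. The interval was therefore part of a peak-free stretch of 167 to 507 kb, depending on the list. Of autosomal windows of the same length, 30.9% had no peak in any of the 6 lists. Taken by list, 69.4%, 54.9% and 48.9% had no 5hmC and 57.4%, 45.2% and 67.9% no 5mC in fibroblasts, day-3 cells and iPS cells. A locus without a call may still carry the marks below what these libraries of unknown depth could detect.

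Col1a1 had the densest 5hmC of the 8 loci at all 3 stages. Its 5hmC peaks numbered 4, 11 and 13 and covered 9.07%, 38.6% and 36.2% of 40 kb, or 6.31, 7.57 and 4.81 times the autosomal share. Same-length windows with at least as much made up 1.56%, 1.04% and 3.51% of the autosomes. The day-3 length was 4.26 times that of fibroblasts, and the iPS length 0.937 times that of day 3. 5mC peaks numbered 3, 6 and 4 and covered 8.19%, 18.9% and 11.2%, so Col1a1 was the only locus of the 8 with more 5mC in iPS cells than in fibroblasts, 1.37 times against 0.538 times on the autosomes. Beside it, the stretch of equal length after the interval was also widely covered, with 33.6% day-3 5hmC and 37.6% day-3 5mC.

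A stretch of 990 bp at Col1a1, chromosome 11 from 94811219 to 94812208, was covered by peaks of all 6 lists, and no other stretch of the 8 intervals was. It was the best-scoring site of the locus in each list. The iPS 5hmC peak there, from 94811020 to 94813467, had a score of 1996.46 and rank 151 of 174079 (top 0.0867%), and the day-3 5hmC and 5mC peaks lay in the top 0.845% and 1.07% of their lists. Of the 11 day-3 5hmC peaks of Col1a1, 8 had an iPS counterpart (72.7%, against 48.3% of the whole list), and 1 of 11 lay on no other peak. With iPS 5hmC over 36.2% of the interval and 7.53% of the autosomes, the whole list is not a like background for that share.

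Thy1 had the order of 5hmC levels of every mesenchymal locus with peaks, with the least covered length in fibroblasts and the most at day 3. Its 5hmC peaks numbered 1, 6 and 4 and covered 4.42%, 24.3% and 19.4% of 25 kb, or 3.07, 4.76 and 2.58 times the autosomal share. The lone fibroblast peak, chromosome 9 from 43862354 to 43863457, was absent at day 3 and present in iPS cells. The widest peaks of the later stages shared a place, from 43856120 to 43858231 at day 3 and from 43856144 to 43858120 in iPS cells, where no 5mC was called at any stage. 5mC peaks numbered 4, 3 and 1 and covered 9.38%, 11.4% and 3.14%. A fibroblast and a day-3 5mC peak crossed the edge of the interval and count with the part inside it.

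**Figure D4:**
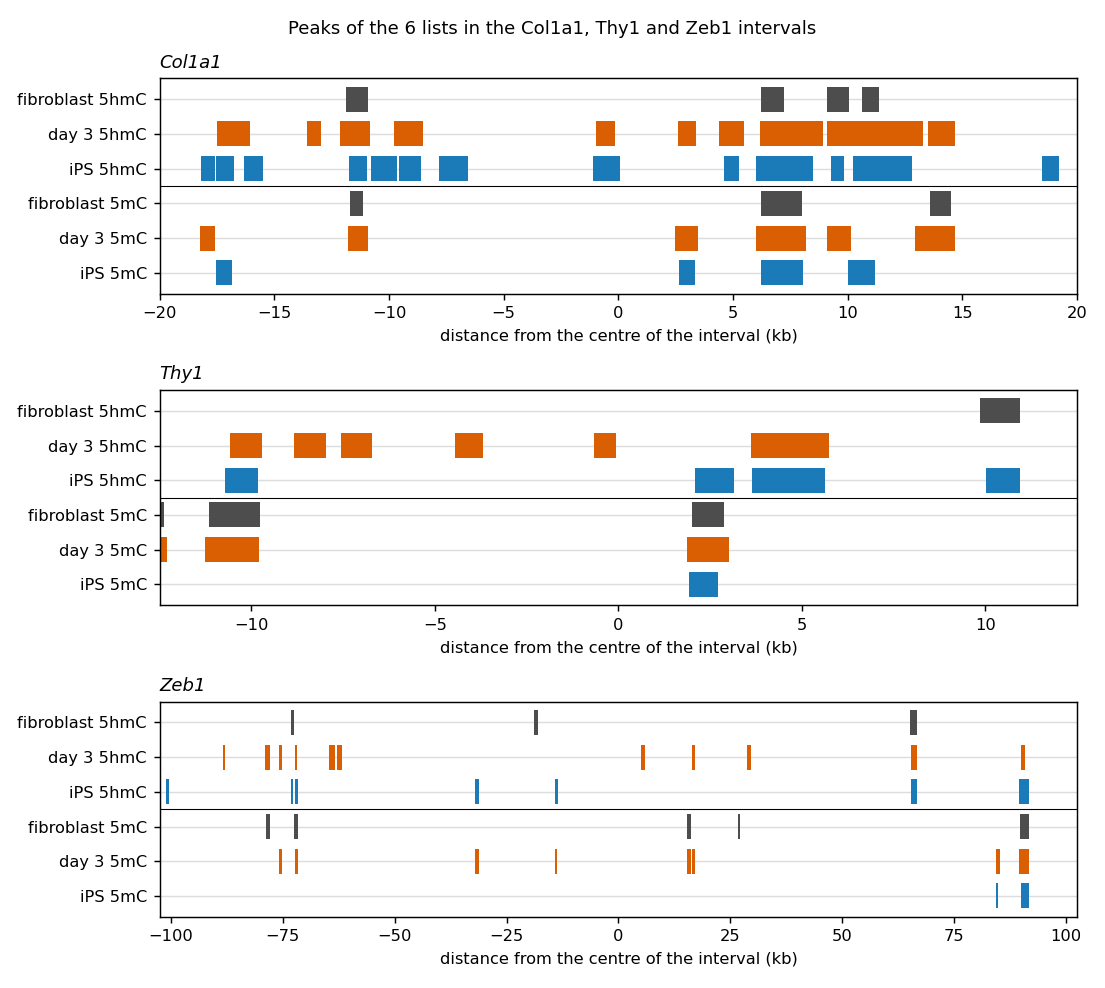
Position of each peak of the 6 lists in the Col1a1, Thy1 and Zeb1 intervals, by distance from the centre of the interval in kb, coloured by stage. At Col1a1 all 6 rows have a peak between 6 and 8 kb right of the centre, and at Zeb1 the same positions recur at the right-hand end.

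Fibroblast 5mC peaks were followed into the 5hmC lists of the later stages. Of the 16 fibroblast 5mC peaks at Cdh1 and Epcam, 4 (25%, 95% Wilson interval 10.2 to 49.5) met 5hmC at day 3, whereas in iPS cells 16 (100%, 80.6 to 100) did. Of the 28 at the mesenchymal loci, 20 (71.4%, 52.9 to 84.7) met it at day 3, and the number in iPS cells was 16 (57.1%, 39.1 to 73.5). In the whole fibroblast 5mC list the shares were 30.9% and 67.2%. The mesenchymal share at day 3 was thus above that of the list, and the epithelial share at day 3 close to it. Neighbouring peaks of a locus are not independent and the intervals cover counting error only, so the difference was not tested. Day-3 5hmC also covered 16.6% of the mesenchymal and 11.8% of the epithelial intervals, against 5.11% of the autosomes. In iPS cells 5hmC covered 22.6% of the epithelial and 6.85% of the mesenchymal intervals, against 7.53% of the autosomes. The whole list is therefore not a like background for the day-3 shares or for the epithelial iPS share. Leaving out each mesenchymal locus in turn gave 57.9% (without Zeb2) to 81.0% (without Cdh2) at day 3 and 52.6% to 61.9% in iPS cells. On the epithelial side the day-3 share was 40% without Cdh1 and 18.2% without Epcam, and the iPS share 100% in both cases.

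By locus, the shares with 5hmC at day 3 were 2 of 11 at Cdh1, 2 of 5 at Epcam, 3 of 5 at Zeb1, 9 of 9 at Zeb2, 3 of 7 at Cdh2, 3 of 3 at Col1a1 and 2 of 4 at Thy1. In iPS cells they were 11 of 11, 5 of 5, 2 of 5, 6 of 9, 3 of 7, 2 of 3 and 3 of 4 in the same order. Every fibroblast 5mC peak of Cdh1 and Epcam thus carried iPS 5hmC, and every one of Zeb2 and Col1a1 carried day-3 5hmC.

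**Figure D5:**
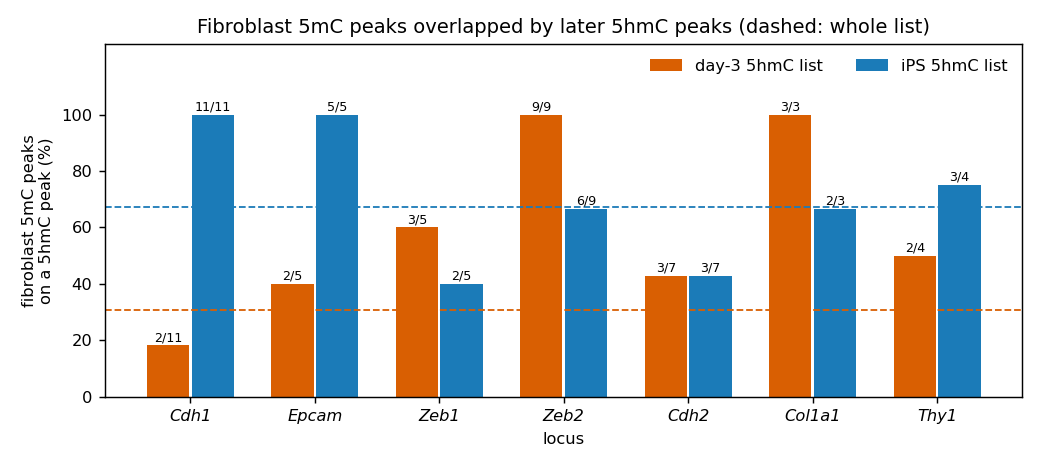
Share of the fibroblast 5mC peaks of each locus, in percent, that overlap a day-3 or an iPS 5hmC peak, with the counts above the bars and the share of the whole fibroblast 5mC list as dashed lines (30.9% and 67.2%). Cdh1 and Epcam reach 100% in iPS cells from 2 of 11 and 2 of 5 at day 3, and Zeb2 and Col1a1 reach 100% at day 3.

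Whether a 5mC peak was still called was also followed. All but 2 of the 44 fibroblast 5mC peaks, 42 in number, lacked fibroblast 5hmC. The 2 with it made up 4.55%, against 11.1% of the whole list, so most peaks of the list lacked it too. In iPS cells 20 of the 42 (47.6%, 33.4 to 62.3) had 5hmC without 5mC, 10 had both marks, 2 had 5mC alone and 10 had neither, against 37.5%, 27.6%, 9.66% and 25.3% of the whole list. At Cdh1 the 11 peaks split into 6 with both marks and 5 with 5hmC alone, at Epcam into 2 and 3, and 0 at these loci had neither. At Zeb2 6 had 5hmC alone, 1 had 5mC alone and 2 had neither. At Cdh2 3 had 5hmC alone, 1 had 5mC alone and 3 had neither, and at Zeb1 3 of 5 had neither. Of the iPS 5mC peaks, 8 of 8 at the epithelial loci and 6 of 12 at the mesenchymal loci overlapped iPS 5hmC, and 67.2% of the whole list did. iPS 5hmC covered 22.6% of the epithelial intervals and 7.53% of the autosomes. The whole list is thus not a like background for the epithelial share.

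Joining overlapping peaks of all lists gave 159 separate regions in the 8 loci, of which 84 (52.8%) were found in a single list, against 46.3% of the 297011 regions of the genome. Day-3 5hmC alone made up 55 regions (34.6%, genome 15.0%), with 24 at Cdh2, 15 at Zeb2, 6 at Cdh1, 5 at Zeb1, 4 at Thy1 and 1 at Col1a1. iPS 5hmC alone made up 15 (9.43%, genome 14.9%), of which 7 lay at Cdh1. Both marks were called, in the same or in different lists, in 51 of the 159 regions (32.1%, genome 37.1%), in 7 of 8 at Epcam and in 6 of 47 at Cdh2.

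The direction of some differences depended on how the lists were made comparable. Relative to the autosomes of the same list, Zeb1 and Cdh2 were past 2-fold lower in 5hmC in iPS cells than in fibroblasts, at 0.462 and 0.383 times. Cdh1 and Epcam, with no fibroblast 5hmC, count as higher under any scaling. With the same number of best-scoring peaks in each list, Zeb2 and Cdh2 had less 5hmC in iPS cells than in fibroblasts. More 5hmC at day 3 than at both other stages was found at Zeb2, Cdh2, Col1a1 and Thy1 in each of these settings and with a score of at least 100. At Cdh2 the excess over fibroblasts was smaller, at 20.7 kb with that score, 11.3 kb with lists of one length and 6.08 kb relative to the autosomes, against 31.7 kb. At Zeb2 it was 41.6 kb, 31.3 kb and 11.5 kb in the same order, against 46.2 kb. At Col1a1 it was 11.3 kb, 4.96 kb and 0.722 kb, against 11.8 kb. At Thy1 it was 3.48 kb, 1.01 kb and 0.606 kb, against 4.97 kb.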

How the data were processed

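Genomic DNA of 3 stages was precipitated with an antibody against 5hmC or 5mC and sequenced, 1 library per stage and mark, and the gel-purified fragments were of 300 to 500 bp, per the labels' protocols. Per the submitters' processing notes, build mm9, MACS 1.4.1, Bowtie 0.12.7 and CASAVA 1.8 were used. The sources used here give no settings, control library, duplicate treatment or read depth. The deposited files give each peak's position and a score from the authors' peak caller, with a minimum of 50 to 50.01. Scores, which depend on depth, ranked peaks within a list, except where a score of at least 100 was required in all lists. That setting kept from 29.0% (iPS 5mC) to 57.2% (day-3 5hmC) of a list.

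Peaks were assigned to loci by overlap of at least 1 bp. Covered base pairs were counted per interval, over the autosomes up to the last covered position, over consecutive windows of 100 kb and over windows of each interval's length. The autosomal shares and the same-length windows were added as background after the data were seen. Overlap counting was tested on simulated data. Coordinates are mm9, counted from 1. No mm9 annotation was used, so peaks were not assigned to promoters, exons or introns, and other genes of the programme were not placed. An interval can hold parts of a neighbour: the nearest protein-coding genes in the RefSeq table (GRCm38.p6, names only, 8 of 8 loci matched) include Cdh3 and Tango6 beside Cdh1, Sgca beside Col1a1 and Usp2 beside Thy1. The members, the lists and the tests were chosen with earlier results of these data known. All 8 loci were described, and the single peaks named were the widest and the best-scoring of each list in a locus and stretches covered by all lists; other places are named after their values were seen. The scripts ran in Python 3.11.15 with matplotlib 3.10.9, scipy 1.17.1, pandas 2.3.3 and numpy 2.4.6.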

Additional observations from a re-analysis of the deposited data

How the results depend on the processing

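No paired analysis was possible because each group holds 1 library. The depth of each list is unknown, and 2 of the settings below shorten the lists. Loci are counted as higher or lower when past 2-fold unless another fold is named. Joining peaks within 1000 bp, using peak centres and moving interval edges by 10% left all counts and covered shares of the 8 loci within 1.5 times.

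With a score of at least 100, the peaks in the 8 loci numbered 8, 73 and 32 for 5hmC (fibroblast, day 3, iPS) and 13, 37 and 5 for 5mC. They covered 0.922% (fibroblast) and 5.01% (iPS) for 5hmC and 2.06%, 4.999% and 0.897% for 5mC. Then 5mC was higher at day 3 than in fibroblasts at 4 loci and lower in iPS cells than in fibroblasts at 3. Of the fibroblast 5hmC peaks 37.5% lay on day-3 peaks, and of the day-3 5hmC peaks 19.2% on iPS peaks. The 5mC shares were 100% for fibroblast on day 3 and 13.5% for day 3 on iPS, and 0% of the fibroblast 5mC peaks had 5mC alone in iPS cells.

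With lists shortened to their 42301 highest scores, the peaks numbered 42 (day 3) and 18 (iPS) for 5hmC and 13, 14 and 11 for 5mC, and the covered shares 8.47% and 3.47% for 5hmC and 2.06% and 2.47% for fibroblast and day-3 5mC. 5hmC was higher in iPS cells than in fibroblasts at 3 loci and lower at 1, and higher than at day 3 at 2. 5mC was higher at day 3 than in fibroblasts at 3 loci, and in iPS cells higher than in fibroblasts at 2 and lower at 2. The iPS minus fibroblast difference in 5hmC turned to -0.797 kb at Zeb2 and -3.97 kb at Cdh2, that in 5mC to 0.690 kb at Cdh2 and 0.784 kb at Thy1, and the iPS minus day-3 difference in 5mC to 2.09 kb at Cdh1. Overlap shares were 29.4% and 17.6% for fibroblast 5hmC on day 3 and iPS, 16.7% for day-3 5hmC on iPS, 69.2% and 46.2% for fibroblast 5mC on day 3 and iPS, and 42.9% for day-3 5mC on iPS. 5hmC lay on 5mC at 14.3% at day 3 and 38.9% in iPS cells, and 33.3% of fibroblast 5mC peaks had 5hmC alone in iPS cells. With an overlap of at least 50%, the day-3 share was 24.3%.

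Relative to the autosomes, 5hmC was past 2-fold higher at day 3 than in fibroblasts at 4 loci. In iPS cells it was past 2-fold higher than in fibroblasts at 2 and lower at 2. Against day 3, iPS 5hmC was past 2-fold higher at 0 (Epcam 1.48 times, Cdh1 1.22 times) and lower at 3 (Zeb1, Zeb2 and Cdh2). 5mC was then higher at day 3 than in fibroblasts at 0 loci, higher at 1 and lower at 2 in iPS cells than in fibroblasts, and lower than at day 3 at 2. Differences from fibroblasts turned in 5hmC, to -0.133 kb at Zeb1 at day 3 and, in iPS cells, to -1.58 kb at Zeb1, -2.45 kb at Cdh2, -0.865 kb at Col1a1 and -0.177 kb at Thy1. The iPS minus day-3 5mC difference at Cdh1 turned to 5.93 kb. A fold of 1.5 called 2 loci higher in 5hmC from day 3 to iPS cells and 2 higher in 5mC from fibroblasts to day 3. Without Zeb2 and Cdh2, an alternative added after seeing the data, iPS 5mC covered 3.85%. The cause of these changes was not tested beyond the shorter lists or the scaling that defines each setting.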
